A study of Mus musculus with 6 samples.

Results

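The genes described here encode the proteins of the cytosolic ribosome. They were taken by name, as every gene whose symbol is Rpl or Rps followed by digits and at most a letter a or x, together with Rplp0, Rplp1, Rplp2 and Rpsa, with a mean of at least 1 FPKM (fragments per kilobase of transcript, scaled to the number of mapped fragments). All 76 symbols that match this rule passed the minimum, out of 47719 identifiers in the tables and 13818 that were tested. Of these 76 genes, 30 belong to the small (40S) subunit and 46 to the large (60S) subunit. They were measured by RNA-Seq in the prostates of 6 B6.129S4-Trp53tm3.1Tyj/J mice, 2 of each genotype: wildtype (Trp53+/+, mice 39 and 41), heterozygous (Trp53R270H/+, mice 37 and 40) and homozygous (Trp53R270H/R270H, mice 47 and 49). The mice were about 3 months old, every mouse had received 5 Gy to the whole body, and tissue was taken 6 h later, so that no unirradiated mouse was compared here. The mutant allele is carried by every cell of the heterozygous and homozygous mice. The whole gland was used, with its epithelium, stroma and any attached tissue. The question was whether messages of the ribosomal proteins differed with the number of R270H alleles.

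Each ribosomal protein is present in a single copy or a few copies per ribosome, and cells make them in matched amounts. Most of their messages start with a C followed by a run of pyrimidines, the terminal oligopyrimidine (TOP) motif, through which the mTORC1 pathway sets their translation. When ribosome assembly is disturbed, free Rpl5 and Rpl11, bound to 5S rRNA, and several other ribosomal proteins bind Mdm2 and keep it from degrading p53. For this reason these genes are of interest in a tissue whose p53 is mutated.

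Sequence around the start of transcription was read for the 56 members found in the RefSeq promoter table (build GRCm38.p6), which has 66 start windows for them. A C at the annotated start followed by at least 4 pyrimidines was present in 13 of these windows (19.7%), against 823 of 32851 windows of all genes (2.51%). The windows below show 10 bases before the start and 20 from the start on, 5′ to 3′ on the strand of the gene. They were chosen to show the tract in members of both subunits, in capitals, and its absence at the annotated starts of Rps28 and Rpl11, which are described further on.
Rps6 (chr4:86857348-86857377, minus strand): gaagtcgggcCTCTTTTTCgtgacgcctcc
Rps10 (chr17:27635225-27635254, minus strand): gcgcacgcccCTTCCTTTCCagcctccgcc
Rps18 (chr17:33955646-33955675, minus strand): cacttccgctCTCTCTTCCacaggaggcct
Rps21 (chr2:180257369-180257398, plus strand): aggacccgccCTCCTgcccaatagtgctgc
Rps27 (chr3:90213629-90213658, minus strand): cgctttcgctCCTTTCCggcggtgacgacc
Rplp2 (chr7:141447641-141447670, plus strand): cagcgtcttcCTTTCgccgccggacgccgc
Rps28 (chr17:33824543-33824572, minus strand): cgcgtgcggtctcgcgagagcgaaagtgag
Rpl11 (chr4:136053374-136053403, minus strand): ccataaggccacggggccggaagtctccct

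The letters CGGAAG, the core that ETS factors bind, were present on either strand in 41 of the 66 windows of 300 bases (62.1%), against 16.9% of the windows of all genes. TATAAA was not present in the 50 bases before any member's start (0 of 66 windows), against 2.63% of all windows. These matches describe annotated starts, and neither the starts used in these mice nor factor binding was measured.

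The summed FPKM per mouse was between 518671 and 636407, and 13452 to 13827 genes had at least 1 FPKM. Fragment counts are not given with these values, so the depth behind a single value is unknown. Cdkn1a, the p53 target that arrests the cell cycle, was 109 and 101 FPKM in wildtype, 40.5 and 41.4 in heterozygous and 6.70 and 6.17 in homozygous animals, an order that follows the labels. The FPKM of Trp53 itself cannot show the genotype, since the mutation changes a single amino acid. Some libraries stood apart in the secretory genes of the male tract. Pbsn, which encodes a major secretion of the prostate, was 257 FPKM in homozygous mouse 47 and at least 7329 in the other mice. The summed level of 7 seminal vesicle markers was 3488 FPKM in wildtype mouse 39 and at least 35187 in the others. Single markers differed from this sum in the homozygous mice. Svs2, Svs4 and Svs5 were listed at 0 FPKM in mouse 47, and Svs2 also in mouse 49. Svs2 was at least 256 FPKM in the wildtype and heterozygous mice. Svs6 was 26147 FPKM in mouse 47 and 1021 or less in the others. The prostate epithelial genes Krt8, Krt18 and Hoxb13 were at 77.0 FPKM or more in every mouse.

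In irradiated prostate the 76 members were among the most abundant messages, and their levels per length were spread over a 688-fold range. Mean FPKM over the 6 mice ran from 3.67 for Rps12 to 2525 for Rplp1, with a median of 413, where the median tested gene had 9.10 to 9.34 FPKM in each mouse. It was over 1000 for 10 members, between 100 and 1000 for 58 and under 100 for 8. The highest were Rplp1, Rpl41, Rpl32, Rps21 and Rps29, and the lowest were Rps12, Rps27 and Rpl27. Their median transcript length was 704 bases, against 2001 for all tested genes, and 62 of the 76 were shorter than 1000 bases. They lay on 19 chromosomes, with 14 members on chromosome 7.

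**Figure D1:**
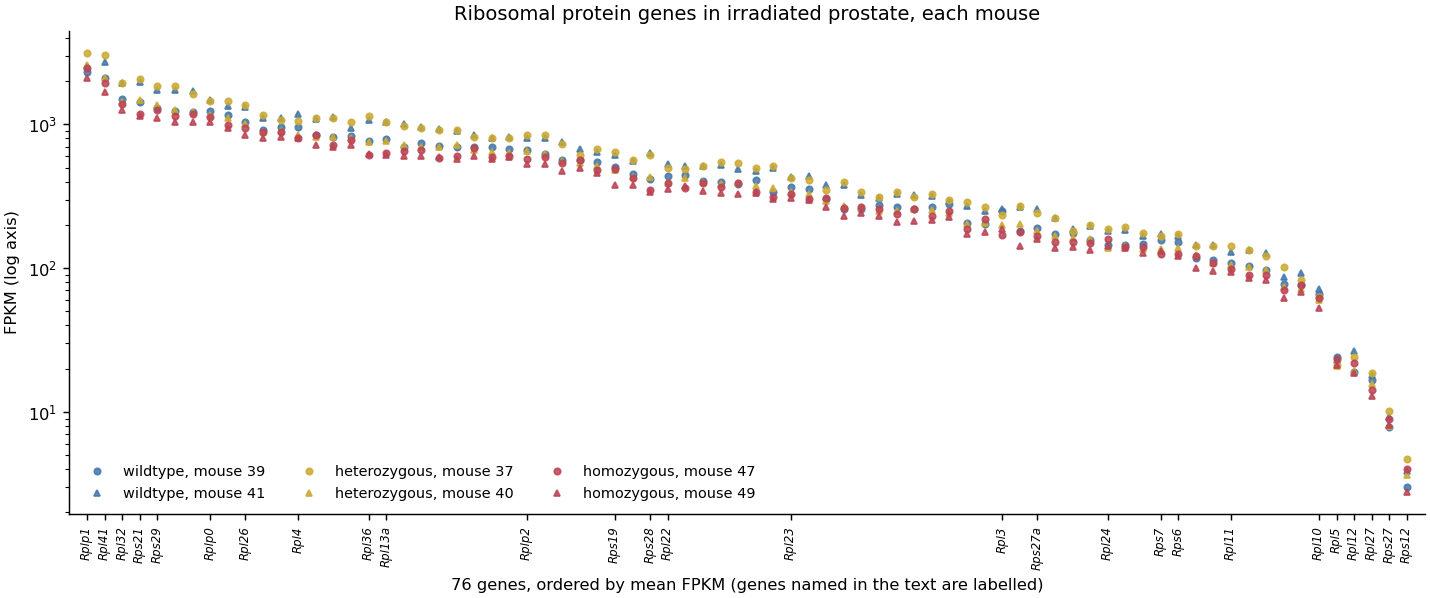
FPKM (log axis) of the 76 ribosomal protein genes in each of the 6 mice, ordered by mean FPKM, with the genes named in the text labelled; colour gives the genotype and the marker shape the mouse. Most members lie between 100 and 1000 FPKM, wildtype mouse 41 and heterozygous mouse 37 are highest for nearly every gene, and Rpl5, Rpl12, Rpl27, Rps27 and Rps12 form a low tail.

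Several members of the low tail have near-identical copies elsewhere in the genome, with which reads can be shared. Copies of at least 90% identity over at least 80% of the coding sequence were found for 69 members, 745 in all. They held more than 10% of the FPKM of the gene and its copies for 9 members. Rpl5 (chr5:107900502-107909005) held 38.6% of its family, with Gm15500 at a mean of 35.4 FPKM against 22.3 for Rpl5 itself. Rps12 (chr10:23785183-23787275) held 31.0%, with Rps12-ps3 at 5.32 FPKM. Rps27 (chr3:90212522-90213651) held 58.0%, with Rps27rt at 6.24 FPKM. The levels of these 3 genes are therefore uncertain, and how the authors' counting split such reads is not given in the sources used here.

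The members moved as a block from mouse to mouse, and the 2 highest mice belonged to different genotypes. The summed FPKM of the 76 genes came to 39478 and 49785 in wildtype, 51104 and 38714 in heterozygous and 36295 and 33185 in homozygous animals. This made up 7.25% and 8.19% of all FPKM in wildtype, 8.07% and 6.72% in heterozygous, and 5.70% and 6.40% in homozygous animals. The shares in both homozygous mice were below those of the other 4, with group means of 7.72% ± 0.668 for wildtype, 7.39% ± 0.950 for heterozygous and 6.05% ± 0.491 for homozygous mice (SD, n = 2 each). With the 10 most abundant identifiers left out of the sum, the shares were 9.68% ± 0.630, 9.25% ± 1.22 and 7.35% ± 0.714. The 40S sum divided by the 60S sum lay between 0.774 and 0.818 in every mouse, so the 2 subunits kept nearly the same proportion. In bulk tissue, fewer cells of a type and less RNA per cell cannot be told apart.

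Relative to each gene's mean over the 6 mice, the median member was at -0.04 and 0.26 on the log2 scale in wildtype mice 39 and 41, at 0.29 and -0.09 in heterozygous mice 37 and 40, and at -0.16 and -0.29 in homozygous mice 47 and 49. The median over all tested genes stayed between -0.02 and 0.03. Heterozygous mouse 37 was the highest mouse for 44 members and wildtype mouse 41 for 31, and homozygous mouse 49 was the lowest for 68. Mice 41 and 37 were above the other 4 in 71 of the 76 members, as they were in 17.2% of the tested genes. Within a genotype, the difference was therefore as large as that between genotypes: mouse 41 was above mouse 39 in 75 of 76 members with a median difference of 0.31, and mouse 40 was below mouse 37 in all 76 with a median difference of -0.38. The homozygous mice differed less, by -0.13.

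**Figure D2:**
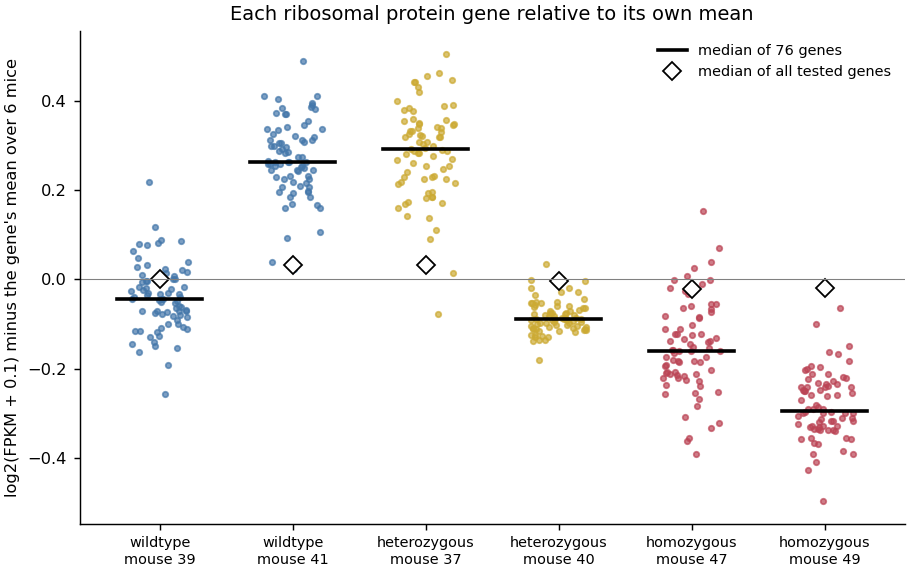
Each point is 1 of the 76 ribosomal protein genes in 1 mouse, as log2(FPKM + 0.1) minus that gene's mean over the 6 mice; bars are the median of the 76 genes and diamonds the median of all 13818 tested genes. The clouds shift as a whole, with mice 41 and 37 high (0.26 and 0.29) and mice 47 and 49 low (-0.16 and -0.29), while the diamonds stay near 0.

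Homozygous against wildtype mice, the fitted log2 fold change was below 0 for all 76 members as deposited, for 75 with median scaling and for 74 with quantile normalization, with a median of -0.36 (0.781-fold), where 55% of all tested genes were below 0 and their median was -0.04. It ranged from -0.58 for Rps28 to -0.0043 for Rps27, with standard errors from 0.111 to 0.346. Both homozygous mice were below both wildtype mice for 62 members, against 28.7% of the tested genes, and above them for 0, against 21.3%. None of the 76 passed limma's moderated test with Benjamini-Hochberg adjustment over all tested genes (0 members, against 0.384% of tested genes), and the lowest adjusted p was 0.204, for Rpl3. At an unadjusted p under 0.05 there were 2 members, Rpl3 and Rpl27, both lower, against 9.32% of tested genes lower and 8.65% higher. The shift of the median was -0.19 without wildtype mouse 41 and -0.49 without wildtype mouse 39, and it was -0.41 without homozygous mouse 47, the library with low Pbsn. It was -0.18 with quantile normalization. The 40S members had a median of -0.37 and the 60S members of -0.32.

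With 1 mutant allele, the same fit gave a median member log2 fold change of -0.01, equal to that of all tested genes at 2 decimals, with 45 members below 0, where 52.8% of tested genes were, and 31 above. The values ran from -0.23 (Rpl3) to 0.26 (Rps12), and both heterozygous mice were below both wildtype mice for 3 members and above them for 1 (19.9% and 19.2% of tested genes). By limma, 0 members passed the adjusted threshold (0% of tested genes) and 0 had an unadjusted p under 0.05, against 2.21% of tested genes lower and 4.66% higher. This median depends on single mice, since it was -0.20 without heterozygous mouse 37 and 0.19 without heterozygous mouse 40. It was -0.18 without wildtype mouse 39 and 0.16 without wildtype mouse 41. The comparisons of heterozygous and of homozygous with wildtype mice share both wildtype mice.

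Homozygous against heterozygous mice, the median was -0.33, and 75 of 76 members were below 0, with 54.2% of the tested genes; Rpl5 was the exception at 0.09, a direction that does not hold for Rpl5 together with its copies (60.6 and 55.4 FPKM in the heterozygous pair, 56.7 and 52.1 in the homozygous pair). Both homozygous mice were below both heterozygous mice for 58 members (24.1% of tested genes) and above them for 1, Rpl5 (18%). Again 0 members passed limma's adjusted threshold (0.0145% of tested genes) and 0 had an unadjusted p under 0.05 (4.42% lower and 1.97% higher). The median was -0.14 without heterozygous mouse 37 and -0.50 without mouse 40. In the F-test over the 3 genotypes, 0 members passed after adjustment (0.101% of tested genes), and 1, Rpl3, had an unadjusted p under 0.05 (11.5%). Rpl3 was the 1 member whose genotypes did not overlap and lay in falling order of allele number, as did 4.98% of tested genes, and 0 members had the rising order (3.85%).

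**Figure D3:**
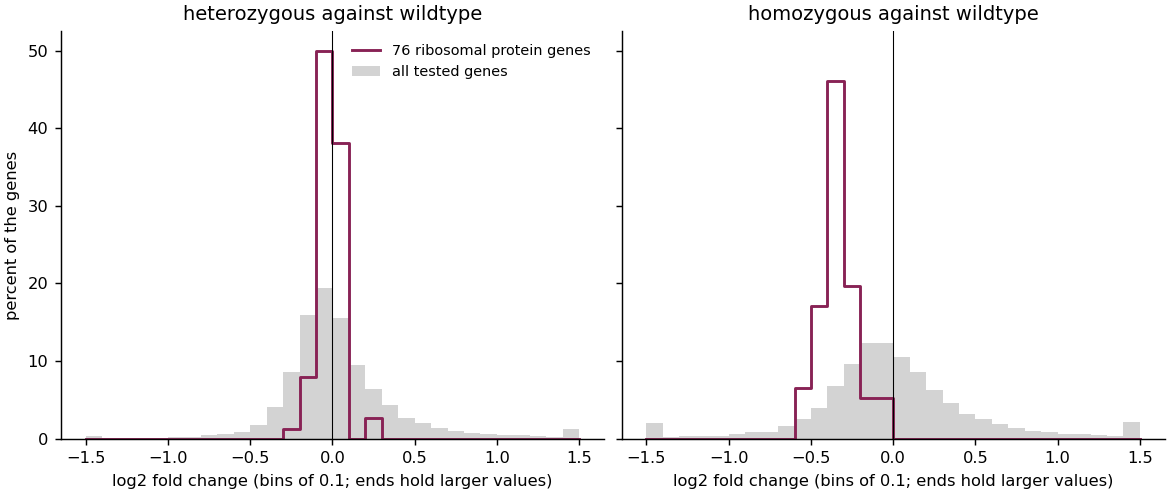
Distribution of fitted log2 fold changes, in bins of 0.1, for the 76 ribosomal protein genes (line) and all 13818 tested genes (grey), as a percent of each set. The members centre on -0.01 in heterozygous against wildtype mice and on -0.36 in homozygous against wildtype mice, within a narrow part of the distribution of all genes.

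Among the ribosomal proteins listed here that bind Mdm2, only Rpl5 had homozygous values that overlapped wildtype. With its copies added, both homozygous mice were below both wildtype mice, as for the others. Rpl5 was 24.2 and 22.9 FPKM in wildtype, 21.1 and 21.0 in heterozygous and 23.4 and 21.3 in homozygous animals, so the groups of wildtype and homozygous mice overlapped. Homozygous against wildtype, the log2 fold change was -0.08 (95% interval -0.35 to 0.20), and with its copies added the family sum was 61.4 in both wildtype mice, 60.6 and 55.4 in heterozygous and 56.7 and 52.1 in homozygous animals. Rpl11 (chr4:136028265-136053428), its partner on the 5S rRNA, was 109 and 130 FPKM in wildtype, 143 and 105 in heterozygous and 98.4 and 93.5 in homozygous animals. Both homozygous mice were lowest, with a log2 fold change of -0.31 (95% interval -0.79 to 0.16).

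Rpl26 (chr11:68901583-68906989), which also binds the Trp53 message, was 1036 and 1313 FPKM in wildtype, 1363 and 1013 in heterozygous and 940 and 847 in homozygous animals. Rpl23 (chr11:97777527-97782437) was 368 and 432 in wildtype, 420 and 338 in heterozygous and 328 and 305 in homozygous animals. Rps7 (chr12:28630854-28635953) was 157 and 173 in wildtype, 167 and 136 in heterozygous and 126 and 131 in homozygous animals. In all 3 genes the homozygous mice were the 2 lowest, at log2 fold changes of -0.39 for Rpl26, -0.33 for Rpl23 and -0.36 for Rps7, and the heterozygous pair differed widely. None of the 5 passed limma's adjusted threshold, with adjusted p from 0.300 to 0.740.

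The P stalk recruits elongation factors to the ribosome. Of its 3 genes, 2 had both homozygous mice below both wildtype mice (28.7% of tested genes), and differences between the 3 were not tested. Rplp0 (chr5:115559467-115563727), its base, was 1239 and 1467 FPKM in wildtype, 1445 and 1163 in heterozygous and 1122 and 1046 in homozygous animals. Rplp2 (chr7:141447370-141451585) was 662 and 804, then 849 and 655, then 576 and 534 FPKM in the same order of genotypes. Both genes were lowest in the homozygous mice, at log2 fold changes of -0.32 and -0.40. Rplp1 (chr9:61913284-61914542), the most abundant member, was 2330 and 2549 FPKM in wildtype, 3126 and 2567 in heterozygous and 2473 and 2109 in homozygous animals, so that homozygous and wildtype mice overlapped. Its log2 fold change was -0.09 (95% interval -0.88 to 0.69; limma, adjusted p = 0.897).

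Of the 40S genes, Rps28 had the largest difference. Rps28 (chr17:33819027-33824562) was 417 and 631 FPKM in wildtype, 610 and 433 in heterozygous and 350 and 338 in homozygous animals, a log2 fold change of -0.58 ± 0.28 (SE; limma, adjusted p = 0.341). Rps21 (chr2:180257377-180258445) was 1439 and 1968 in wildtype, 2083 and 1481 in heterozygous and 1182 and 1152 in homozygous animals, a log2 fold change of -0.53. In both, the 2 homozygous values were close together and below the other 4, while mice of the other genotypes differed by about the size of the genotype difference. Rps6 (chr4:86854660-86857412), whose protein is phosphorylated by S6 kinase downstream of mTORC1, was 153 and 168 FPKM in wildtype, 174 and 138 in heterozygous and 125 and 121 in homozygous animals (log2 fold change -0.38, limma adjusted p = 0.294). Rps19 (chr7:24884371-24889806), the gene most often mutated in Diamond-Blackfan anaemia, was 504 and 611, then 642 and 479, then 491 and 379 FPKM. Its homozygous mice were below both wildtype mice, but mouse 47 was above heterozygous mouse 40.

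Rps27a (chr11:29545846-29548109), which encodes a ubiquitin joined to a 40S protein, was 189 and 257 FPKM in wildtype, 241 and 181 in heterozygous and 168 and 159 in homozygous animals, a log2 fold change of -0.43. Rps29 (chr12:69157722-69159186) was 1296 and 1742, then 1842 and 1353, then 1255 and 1101 FPKM, a log2 fold change of -0.35. Both were lowest in the homozygous mice. Rps12 and Rps27, the 2 members with the lowest level, did not follow: Rps12 was 3.01 and 3.91 FPKM in wildtype, 4.67 and 3.62 in heterozygous and 4.04 and 2.79 in homozygous animals, and Rps27 was 7.83 and 9.25, 10.2 and 7.99, and 8.91 and 8.08. The groups overlapped in both genes. The sum of Rps12 and its copies was 11.3 and 15.0 in wildtype, 14.0 and 11.2 in heterozygous and 10.2 and 9.44 in homozygous animals, with both homozygous mice lowest.

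Of the 60S genes, Rpl3 had the lowest p, with 2 wildtype mice that were close together. Rpl3 (chr15:80077791-80091868), whose protein lies near the peptidyl transferase centre, was 249 and 259 FPKM in wildtype, 236 and 199 in heterozygous and 170 and 186 in homozygous animals. Against wildtype, the log2 fold change was -0.23 with 1 mutant allele and -0.51 ± 0.15 (SE) with 2, with a limma p of 0.017 and an adjusted p of 0.204 for the latter. Rpl27 (chr11:101442298-101445529) was 16.6 and 18.2 FPKM in wildtype, 18.6 and 15.5 in heterozygous and 14.2 and 12.9 in homozygous animals. Its homozygous values were the lowest 2, at a log2 fold change of -0.36 with a limma p of 0.043 and an adjusted p of 0.264, although Rpl27 held only 73.4% of the FPKM of its family.

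Rpl36 (chr17:56613416-56614243) was 765 and 1066 FPKM in wildtype, 1139 and 749 in heterozygous and 612 and 626 in homozygous animals, a log2 fold change of -0.55. Rpl13a (chr7:45125558-45128761), whose free protein represses translation of inflammatory messages, was 786 and 1046, then 1034 and 766, then 636 and 609 FPKM, a log2 fold change of -0.54. These 2 and Rps28 and Rps21 had the largest differences in homozygous mice, and all 4 had the wide spread within wildtype and heterozygous pairs. Rpl41 (chr10:128548114-128549305), which encodes the smallest ribosomal protein, was 2112 and 2731 FPKM in wildtype, 3023 and 2088 in heterozygous and 1939 and 1692 in homozygous animals. Rpl32 (chr6:115805505-115808747) was 1499 and 1939, then 1946 and 1420, then 1389 and 1251 FPKM. Both were lowest in the homozygous mice, with log2 fold changes of -0.41 for Rpl41 and -0.37 for Rpl32.

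Rpl4 (chr9:64173375-64178666), part of the wall of the exit tunnel, was 959 and 1176 FPKM in wildtype, 1047 and 844 in heterozygous and 803 and 798 in homozygous animals. Rpl10 (chrX:74270812-74273135), among the last proteins to join the 60S subunit, was 66.1 and 71.7, then 63.1 and 59.8, then 62.4 and 53.2 FPKM. With Rpl3, these were the 3 members with the lowest log2 fold changes in heterozygous against wildtype mice, at -0.18 for Rpl4 and -0.16 for Rpl10, with intervals that include 0. Rpl24 (chr16:55966275-55971435) was 144 and 180 FPKM in wildtype, 188 and 139 in heterozygous and 158 and 142 in homozygous animals, and its wildtype and homozygous values overlapped. In 14 members in all, such an overlap was present.

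Once each mouse's median over the 76 genes was taken out, little spread among the members was left. The median SD of a member over the 6 mice was 0.239 on the log2 scale as deposited and 0.0744 relative to the block. The range over the 6 mice was under 0.25 for 51 of 76 members after this step. It was widest for Rpl5 (0.68), Rps12 (0.59), Rpl10 (0.51), Rplp1 (0.47), Rps27 (0.47) and Rpl3 (0.43). As given above, the levels of Rpl5, Rps12 and Rps27 are uncertain. Relative to the block, Rpl5 was high in mouse 47 (0.29) and mouse 49 (0.21) and low in mouse 37 (-0.39) and mouse 41 (-0.26), its own level staying between 21.0 and 24.2 FPKM. The 76 values of a mouse come from 1 library, so their common shift is 1 observation per mouse and not 76.

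Ribosomal protein genes that the naming rule left out included 2 paralogs with a pattern of their own. Rps27l, a paralog of Rps27 and a known p53 target, was 406 and 400 FPKM in wildtype, 316 and 267 in heterozygous and 226 and 188 in homozygous animals. The genotypes did not overlap and lay in the order of allele number, at log2 fold changes of -0.47 in heterozygous (limma, adjusted p = 0.688) and -0.97 in homozygous mice (adjusted p = 0.115). Rps27l was higher than Rps27 in every mouse, at a mean of 301 against 8.71 FPKM. The level of Rps27 is uncertain, as given above, and Rps27 with its copies added was at 17.2 FPKM or less in every mouse. Rpl3l, the paralog of Rpl3 used in striated muscle, was 10.3 and 14.6 FPKM in wildtype, 27.6 and 28.8 in heterozygous and 31.8 and 29.6 in homozygous animals, in the direction opposite to Rpl3. Against wildtype, the log2 fold change was 1.19 in heterozygous (limma, adjusted p = 0.221) and 1.31 in homozygous mice (adjusted p = 0.068).

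Skeletal muscle markers moved with Rpl3l: their fitted log2 fold changes were above 0 for 12 of 12 genes in both mutant genotypes, with a median of 1.23 in heterozygous and 1.40 in homozygous mice. Their summed FPKM was 1749 and 2552 in wildtype, 4915 and 5151 in heterozygous and 6006 and 5264 in homozygous animals, and 1 of the 12, Myoz1, passed limma's adjusted threshold in homozygous mice (1.58, adjusted p = 0.0477). Their part in the level of Rpl3l was not tested. Rpl22l1, the paralog of Rpl22, was 117 and 108 FPKM in wildtype, 107 and 95.2 in heterozygous and 106 and 86.0 in homozygous animals, with a log2 fold change of -0.24 in the latter. Rpl22 itself (chr4:152325742-152334071) was 435 and 532, then 500 and 394, then 391 and 357 FPKM, a log2 fold change of -0.36.

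**Figure D4:**
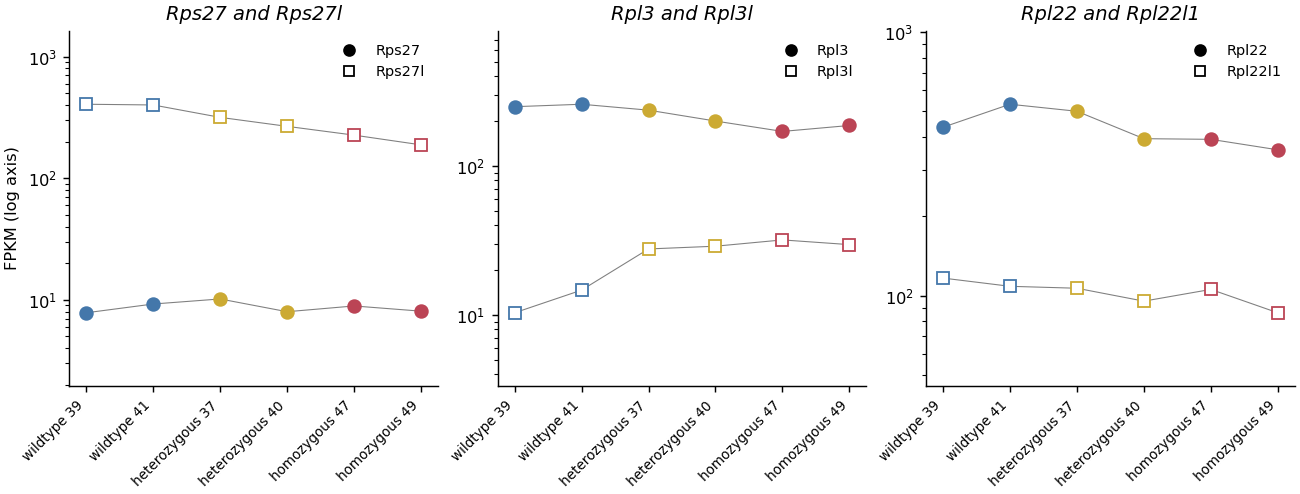
FPKM (log axis) in each mouse of 3 ribosomal protein genes (filled circles) and their paralogs (open squares), coloured by genotype; lines join the values of 1 gene. Rps27l goes from 406 and 400 in wildtype to 226 and 188 in homozygous mice while Rps27 stays between 7.83 and 10.2, and Rpl3l goes from 10.3 and 14.6 to 31.8 and 29.6 while Rpl3 goes from 249 and 259 to 170 and 186.

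Most of the other ribosomal proteins outside the rule were below 0 as the block was, while Rps27rt and Rps4l were above 0. In homozygous against wildtype mice the log2 fold change was -0.43 for Fau, which joins a ubiquitin-like protein to a ribosomal protein, -0.32 for Rps3a1, and -0.24 for Gnb2l1, which encodes the scaffold Rack1. It was -0.23 for Rpl36al, -0.21 for Rpl7l1, 0.19 for Rps27rt and 0.27 for Rps4l. Of the 11 genes tested, 8 were below 0 and 0 passed limma's adjusted threshold in any comparison. At an unadjusted p under 0.05 in homozygous mice, 1 was higher (Rpl3l) and 1 lower (Rps27l), against 8.65% and 9.32% of tested genes. Rpl39l and Rpl10l, both known from testis, were listed at 0 in every mouse.

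Other gene groups of protein synthesis and turnover had medians nearer to 0 than the members (-0.36), and the other TOP messages came closest to them. Of 17 other genes whose messages carry TOP motifs, mostly translation factors, 16 had a log2 fold change below 0 in homozygous against wildtype mice. That held for 55% of tested genes. The median of the 17 was -0.29, and 12 had both homozygous mice below both wildtype mice (28.7% of tested genes). The most abundant, the elongation factor Eef1a1, was 4223 and 4590 FPKM in wildtype, 4059 and 3495 in heterozygous and 3245 and 3371 in homozygous animals (log2 fold change -0.41). Eef2 was 1515 and 1573, then 1427 and 1204, then 972 and 1174 FPKM (-0.53). In both the 3 genotypes were in falling order of allele number without overlap, as were 4.98% of tested genes. These 2 genes were picked after their values were seen, and the number of the 17 with this order is not reported here. The median deviation of the 17 genes was 0.09 and 0.19 in mice 39 and 41, 0.12 and -0.06 in mice 37 and 40, and -0.17 and -0.15 in mice 47 and 49. None of the 17 passed limma's adjusted threshold. At an unadjusted p under 0.05 in homozygous mice, 2 were lower, as were 9.32% of tested genes.

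The 77 mitochondrial ribosomal protein genes, which serve the organelle's own ribosome, had a median of -0.12 with 58 below 0. The 32 proteasome subunits had a median of -0.14 with 29 below 0, and the 29 ribosome biogenesis genes measured had a median of -0.05 with 16 below 0. By limma's adjusted test 0 genes of these 3 lists passed in any comparison. At an unadjusted p under 0.05 in homozygous mice, 3, 0 and 1 genes were lower and none was higher. Of all tested genes, 9.32% were lower and 8.65% higher at that threshold. The median of the ribosomal protein genes was thus further from that of all tested genes (-0.04) than were the medians of these lists, a difference that was not tested.

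**Figure D5:**
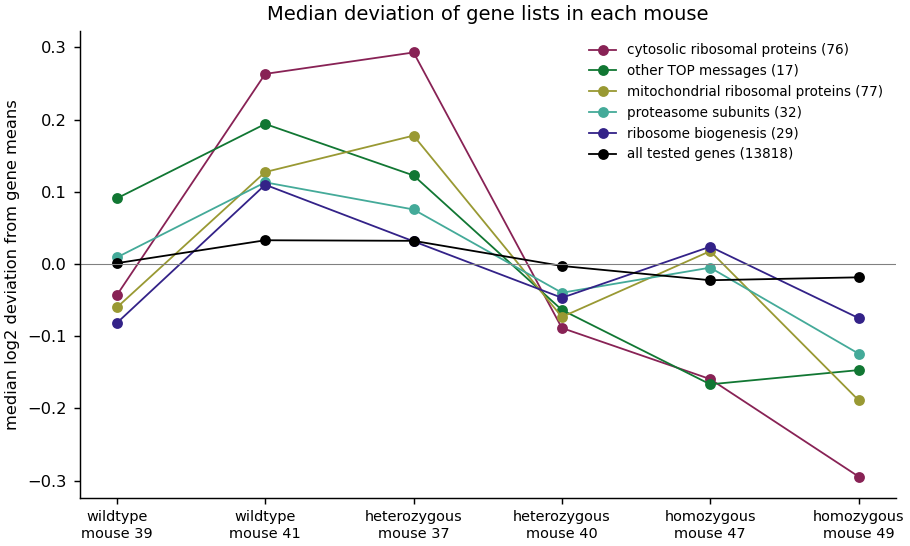
Median deviation on the log2 scale from gene means in each mouse for the ribosomal protein genes, 4 other lists and all tested genes; lines join the medians of 1 list, and the number of genes stands in brackets. The ribosomal protein genes span 0.29 (mouse 37) to -0.29 (mouse 49), the widest of the 6 sets drawn. The medians of all 6 sets are above 0 in mice 41 and 37 and below 0 in mouse 49.

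Outside the members, the median log2 fold change differed with transcript length. Among tested genes that are not members, the median log2 fold change in homozygous against wildtype mice was -0.10 for transcripts under 1000 bases, -0.06 from 1000 to 2000 bases, -0.03 from 2000 to 4000 and 0.05 above 4000. For the genes under 1000 bases the median deviation was 0.07 in mouse 41, 0.13 in mouse 37 and -0.10 in mouse 49, on the same side as the ribosomal protein genes. After a correction for transcript length within each mouse, the median of the members was -0.27 in homozygous against wildtype mice, and -0.36 as deposited. The part of transcript length in the shift of the members was not tested. Smooth muscle markers were above 0 for 8 of 8 genes in homozygous mice (median 0.33), with summed FPKM of 1840 and 2148 in wildtype and 2878 and 2020 in homozygous mice. The prostate epithelial markers had 9 of 12 genes below 0 (median -0.31), and their sums were 17505 and 22066 in wildtype, 16415 and 13450 in heterozygous and 1367 and 11619 in homozygous animals. Pbsn and Tgm4 made up most of these sums in every mouse but mouse 47, where they were 257 and 131 FPKM, so the sums mainly follow these genes. The lymphocyte markers summed to 337 and 529 in wildtype, 645 and 687 in heterozygous and 98.2 and 368 in homozygous animals. These sums rest on the immunoglobulin genes Igkc and Ighm, which were lowest in mouse 47 (83.5 and 8.88 FPKM), and no other lymphocyte marker was above 2.61 FPKM in any mouse. Of the 11 lymphocyte markers 3 were tested. The T cell genes did not share 1 pattern. Cd3g was highest in mouse 47, at 2.35 FPKM against 0.704 or less in the others, and so was Cd3e, at 0.961 against 0.821 or less. Cd4 was highest in mouse 49 (1.10 FPKM, against 0.470 in mouse 47) and Cd8a in mouse 40 (0.410, against 0.387 in mouse 47). The part of these cell types in the ribosomal protein values was not tested.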

How the data were processed

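RNA of 6 irradiated prostates was measured, and each mouse was put in its genotype by the submitters' labels. The authors prepared stranded mRNA libraries and deposited gene-level FPKM per mouse. Per the submitters' processing notes, bcl2fastq, HISAT, Cufflinks, Cuffnorm and mm10 were used, whose versions and annotation are not given in the sources used here. FPKM is already divided by transcript length and library size, and strand was kept by the kit.

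Values were tested as log2(FPKM + 0.1) in the 13818 identifiers whose mean over the mice reached 1 FPKM, with limma 3.58.1 in R 4.3.3 (lmFit with 3 genotypes, and eBayes with an intensity trend) and Benjamini-Hochberg adjustment at 0.05 over all tested genes. Fold changes are on this scale, and intervals are 95% intervals of the fit. The labels name neither litter nor batch, so no covariate was entered. With 2 mice per genotype, p-values measure the spread between these mice only. The code was tested on simulated data. Positions and lengths are from GENCODE M21 (GRCm38.p6), copies were found with blast 2.17.0 among its transcripts, and start windows are from RefSeq. Among members not matched to a start window were Rpl7, Rpl3, Rps27a, Rps14, Rpl17, Rplp1, Rpl21, Rpl30, Rpl23a, Rpl36, Rpl29, Rps29, Rpl8, Rps20 and Rpl32. Some single genes of the lists are not reported here.

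The members and lists were chosen with earlier results of these data known. Genes named by rule were the Mdm2-binding and P stalk genes, Rps6, Rps19, Rps27a, Rpl22, the 5 highest and 3 lowest by mean FPKM, the 5 highest and 5 lowest log2 fold changes in homozygous and the 3 and 3 in heterozygous mice, members ordered by allele number, and ribosomal proteins outside the naming rule. Other genes named, among them those of the low tail, and the printed start windows were chosen after their values were seen. The other such genes were Pbsn, Tgm4, Svs2, Svs4, Svs5, Svs6, Eef1a1, Eef2, Krt8, Krt18, Hoxb13, Myoz1, Igkc, Ighm, Cd3g, Cd3e, Cd4 and Cd8a. The marker lists also covered macrophages and adipocytes, whose medians in homozygous against wildtype mice were -0.05 and 0.47 with 0 genes passing. The alternatives were a pseudocount of 1 or 0.01, no filter, a minimum of 5 FPKM, rescaling to the same sum per mouse (TPM), median scaling, quantile normalization, no intensity trend and leaving out each mouse. The sum of copies, the correction for transcript length (loess) and a sum over tested genes were added after seeing the data.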

Additional observations from a re-analysis of the deposited data

How the results depend on the processing

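No member passed limma's adjusted threshold in any comparison under any alternative tried (0 of 76 throughout). The lowest adjusted p in homozygous against wildtype mice lay between 0.191 and 0.420. The median member log2 fold change in homozygous against wildtype mice stayed below 0 in every alternative, at -0.18 with quantile normalization, -0.27 with the correction for transcript length, -0.34 with median scaling, -0.35 with rescaling to the same sum and -0.35 with copies added. Leaving out 1 mouse at a time gave -0.49 to -0.19, and for heterozygous against wildtype mice -0.20 to 0.19, so that the latter has no stable sign. The number of members ordered by allele number was 1 as reported, 5 with rescaling to the same sum, 3 with quantile normalization and 2 with the correction for transcript length. Leaving out 1 mouse gave 1 to 44, with 44 without heterozygous mouse 37 and 25 without wildtype mouse 39, where fewer mice have to be in order. Members with an unadjusted p under 0.05 in homozygous mice numbered 0 (without wildtype mouse 41) to 6 (without wildtype mouse 39).

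Among the members named by rule, the sign of 5 small differences in homozygous against wildtype mice changed. Rpl24 was 0.12 with quantile normalization and Rpl5 0.0058. Rplp1, Rps12 and Rps27 were 0.019, 0.083 and 0.14 with the correction for transcript length. Rps27 was 0.012 with median scaling and 0.047 with copies added. Leaving out 1 mouse gave -0.27 to 0.056 for Rpl24, -0.21 to 0.021 for Rplp1, -0.29 to 0.23 for Rps12 and -0.12 to 0.11 for Rps27. The values were above 0 without wildtype mouse 41 (Rpl24, Rps12, Rps27 and also Rpl12, leaving 72 of 76 below 0) or homozygous mouse 49 (Rplp1, Rps12, Rps27). The cause was not tested. Rpl3l had a log2 fold change of 1.56 in homozygous against wildtype mice without wildtype mouse 41, the wildtype mouse with the higher Rpl3l value. No paired analysis was possible because the animals are different and the labels give no number that the genotypes share. Fragment counts are not given with the values, so the sampling error of low members such as Rps12 is unknown.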
